A study of Mus musculus with 12 samples.

Results

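The immediate-early AP-1 and EGR genes are described here in CD115-positive monocytes of the mouse. The group was set by gene symbol and held 10 genes, Fos, Fosb, Fosl2, Jun, Junb, Jund, Atf3, Egr1, Egr2 and Egr3, of 52553 features in the count tables. All 10 were found and all 10 passed the filter on low counts. The cells came from male C57BL/6 mice that kept their spleen, and no transgene or deletion is named for them. They were sorted with anti-CD115 magnetic beads from spleen or peripheral blood, either of intact mice or of mice that had lost 70% of the liver mass to resection 24 h before. The 12 libraries fell into 4 groups of 3, and each library pooled cells of 5 mice, so the spread between libraries was a spread between pools. Intact mice had both organs untouched, and no sham-operated group is among these libraries, so resection and the surgery itself cannot be told apart. Splenic cells of both states were mechanically dispersed, digested with type I and IV collagenases and treated with red cell lysis solution before the Ficoll gradient, whereas blood went to the gradient undigested. Tissue and digestion therefore changed together in every comparison of blood with spleen and cannot be told apart there, while the 2 sides of each comparison of resected with intact mice were prepared alike.

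AP-1 is a family of transcription factors made of paired basic leucine zipper proteins, in which a FOS protein joins a JUN protein, or JUN proteins join each other. The EGR proteins are zinc finger factors that bind GC-rich sites. Most of these genes are silent or low in resting cells and are transcribed within minutes of a stimulus without new protein synthesis, through MAP kinases acting on the serum response factor at CArG boxes and on CREB at cAMP response elements. In myeloid cells they follow adhesion, growth factors, cytokines and microbial products, and enzymatic digestion of tissue is also known to induce them.

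The deposited values were estimated counts per gene, and totals ran from 36990033 to 46401368 per library. Levels are given as CPM, counts scaled to library size with TMM factors. Csf1r, which encodes the CD115 antigen used for sorting, was present in every library, at 374, 460 and 525 CPM in intact spleen, 915, 1192 and 587 CPM in resected spleen, 467, 363 and 209 CPM in intact blood and 601, 678 and 719 CPM in resected blood. Haemoglobin genes held 13.2% to 34.2% of the counts in blood libraries and 0.0814% to 3.47% in splenic ones. Intact blood library 3 stood apart from the other intact blood libraries. Its chi-square per degree of freedom against them was 599 and 455, compared with 61.7 between those libraries, and its value was the lowest of its group for 10 of the 10 genes. Resected blood library 3 also stood apart from its group, with a chi-square per degree of freedom of 297 and 348, compared with 64.1 between libraries 1 and 2. In intact spleen, library 3 was the highest for 9 of the 10 genes, and in resected spleen library 3 was the lowest for 9. In bulk RNA of this kind, fewer expressing cells and less RNA per cell cannot be told apart.

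The RefSeq promoter table (build GRCm38.p6) held windows for 8 of the 10 genes, all but Egr1 and Egr3. The 250 bases before each start site were searched on both strands for the CArG box, the cAMP response element TGACGTCA, its shorter form TGACG, the AP-1 site TGANTCA and the EGR site GCGNGGGCG. For Fos, a classical immediate-early gene, all 250 bases of the searched window are shown. They lie at chr12:85473640-85473889 on the plus strand, with TGACG in capitals at -129 to -125 and -66 to -62 from the start site.
Fos: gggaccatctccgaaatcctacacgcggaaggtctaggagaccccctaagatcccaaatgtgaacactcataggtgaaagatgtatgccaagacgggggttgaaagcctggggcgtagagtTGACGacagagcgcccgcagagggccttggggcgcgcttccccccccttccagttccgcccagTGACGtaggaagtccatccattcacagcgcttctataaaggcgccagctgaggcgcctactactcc
The stretches of 30 bases that hold matches in 4 other genes are shown for comparison, each read 5′ to 3′ along its gene. They lie at chr10:67537793-67537822 on the plus strand for Egr2, at chr7:19310081-19310110 on the minus strand for Fosb, at chr5:32136383-32136412 on the plus strand for Fosl2 and at chr8:84978837-84978866 on the minus strand for Junb. Capitals mark the CArG box and the reverse complement of TGACG in Egr2, TGACG and then the EGR site in Fosb, the EGR site in Fosl2 and TGACG in Junb.
Egr2: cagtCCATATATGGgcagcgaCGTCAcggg
Fosb: gcgggTGACGcaagcGCGGGGGCGggtccc
Fosl2: ccggctgcgcGCGGGGGCGgaagggcgcgc
Junb: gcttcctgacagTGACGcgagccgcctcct
A CArG box was found in 1 of the 8 genes, Egr2, which has several windows, and in 1.48% of all 32536 distinct windows. TGACG, which every full cAMP response element also contains, was found in 5 of the 8 genes (Fos, Fosb, Junb, Atf3 and Egr2) and in 17.9% of all windows. The EGR site was found in 2 of the 8, Fosb and Fosl2, and in 4.74% of windows. The full cAMP response element and the AP-1 site were found in 0 of the 8, against 1.56% and 6.73% of windows. These are matches of letters within short windows and say nothing of binding in these cells. Sites more than 250 bases before the start were not searched, so a gene without a match here can hold one further upstream.

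Among the FOS genes, Fos, the founding member of the family, stood at 1710, 1819 and 3274 CPM in libraries 1, 2 and 3 of intact spleen and at 2278, 3959 and 1843 CPM in resected spleen. In blood it stood at 316, 415 and 109 CPM in intact mice and at 197, 275 and 135 CPM after resection. Every splenic library lay above every blood library, and within each tissue the states overlapped. Fosb, a close relative of Fos whose short splice form accumulates after repeated stimulation, stood at 820, 682 and 2305 CPM in intact spleen and at 4726, 3350 and 2142 CPM in resected spleen. Its blood values were 213, 277 and 78.9 CPM in intact mice and 124, 166 and 95.2 CPM after resection. Resected spleen libraries 1 and 2 held the highest Fosb values of all, but library 3 lay within the intact range. Fosl2 encodes FRA-2, a more stable FOS protein that follows Fos and Fosb in time. It stood at 125, 154 and 112 CPM in intact spleen, 195, 134 and 381 CPM in resected spleen, 444, 284 and 194 CPM in intact blood and 338, 380 and 629 CPM in resected blood. It was the only one of the FOS genes whose intact blood libraries all lay above the intact splenic ones.

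Among the JUN genes, Jun, the main partner of FOS proteins, stood at 1098, 1315 and 3167 CPM in intact spleen and at 3907, 3561 and 2323 CPM in resected spleen. In blood it stood at 415, 529 and 238 CPM in intact mice and at 319, 448 and 336 CPM after resection. As with Fos, all splenic libraries lay above all blood libraries. Junb, a weaker activator that can act against Jun, stood at 1309, 1617 and 2612 CPM in intact spleen, 2539, 2692 and 1931 CPM in resected spleen, 1511, 1594 and 383 CPM in intact blood and 1588, 2153 and 1648 CPM in resected blood. Intact blood lay below resected spleen without overlap, and every other pair of groups overlapped. Jund, which most cells express without a stimulus, stood at 1072, 1226 and 1989 CPM in intact spleen, 3052, 2387 and 2016 CPM in resected spleen, 743, 944 and 336 CPM in intact blood and 609, 700 and 515 CPM in resected blood. The Jund libraries of resected spleen lay above those of intact spleen, by a margin of 2016 against 1989 CPM at the nearest.

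Atf3, a stress-induced basic leucine zipper factor that pairs with JUN proteins and often represses, stood at 148, 207 and 590 CPM in intact spleen and at 568, 475 and 334 CPM in resected spleen. In blood it stood at 390, 564 and 91.6 CPM in intact mice and at 345, 385 and 166 CPM after resection. The 4 groups overlapped.

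Among the EGR genes, Egr1, a widely used marker of immediate-early induction, stood at 1059, 859 and 1671 CPM in intact spleen and at 1096, 1729 and 887 CPM in resected spleen. In blood it stood at 98.6, 117 and 53.3 CPM in intact mice and at 589, 685 and 380 CPM after resection. The lowest resected blood library thus lay above the highest intact one, and all 6 blood libraries lay below all 6 splenic libraries. Egr2, which takes part in macrophage and lymphocyte differentiation, stood at 74.9, 69.2 and 92.7 CPM in intact spleen, 58.3, 76.0 and 37.7 CPM in resected spleen, 22.9, 29.5 and 7.93 CPM in intact blood and 149, 129 and 62.7 CPM in resected blood. Resected blood libraries 1 and 2 were the highest of all for Egr2. Egr3, a relative of Egr2 best known in lymphocytes, stood at 128, 102 and 158 CPM in intact spleen, 201, 125 and 69.8 CPM in resected spleen, 15.1, 19.9 and 4.96 CPM in intact blood and 50.9, 76.2 and 91.4 CPM in resected blood. For each of the EGR genes every intact blood library lay below every library of the other groups.

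**Figure D1:**
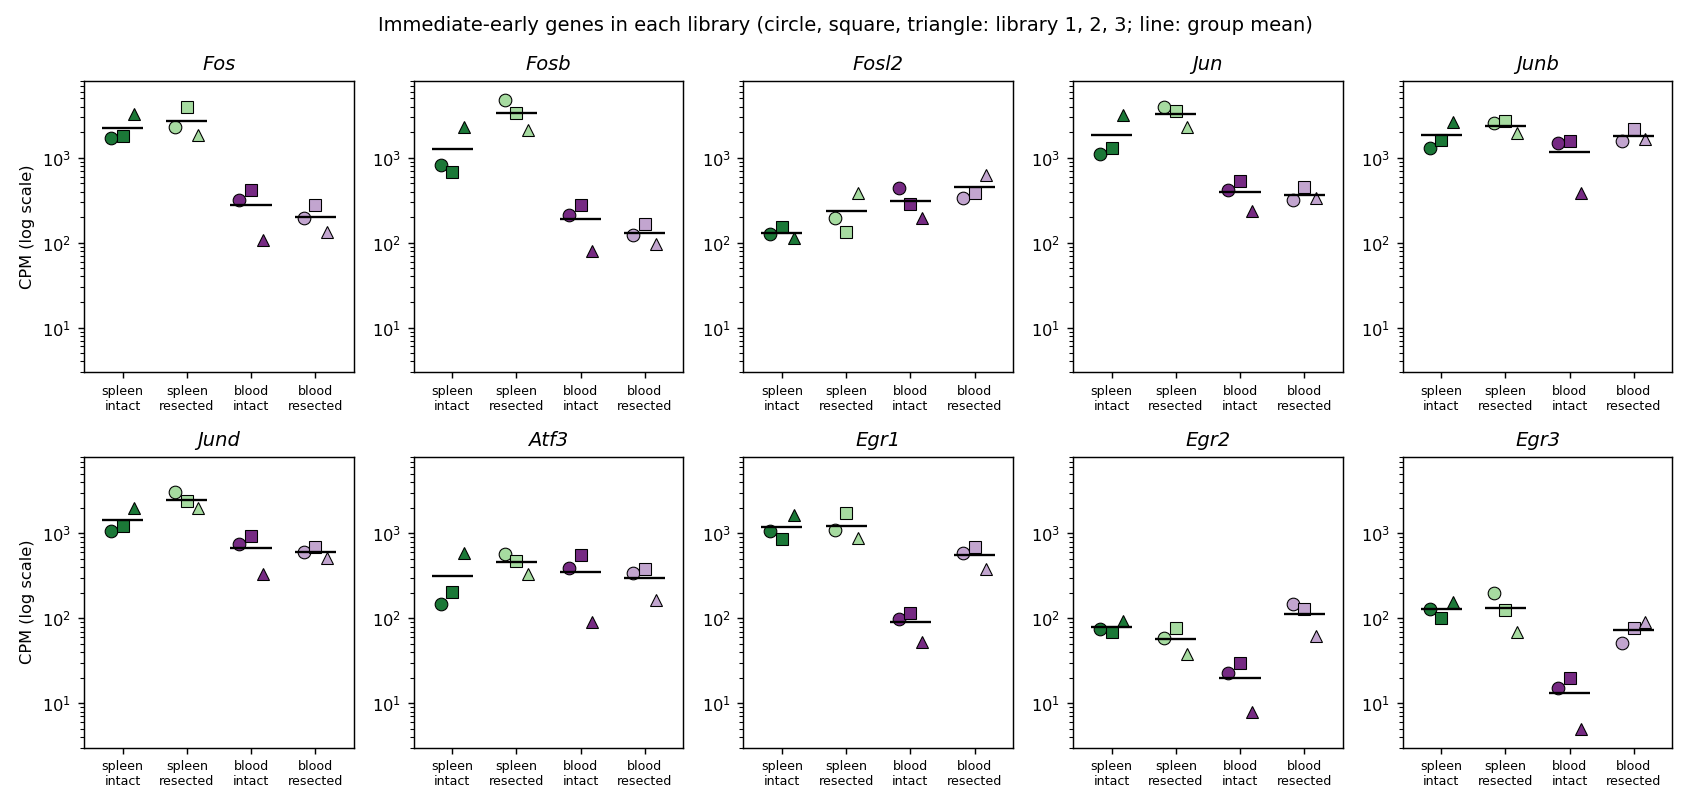
CPM of each of the 10 genes (vertical log axis) in the 12 libraries by group (horizontal axis); circles, squares and triangles are libraries 1, 2 and 3 and the lines are group means. Fos, Fosb and Jun were lower in blood in both states, whereas the EGR genes had their lowest values in intact blood, with Egr1 at 53.3 to 117 CPM there and at 380 to 685 CPM in resected blood.

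Levels were compared between genes per kilobase of exonic sequence (CPM per kb, lengths from the GRCm38 annotation). In intact spleen the order was Fos, at 1076 ± 414 CPM per kb (SD, n = 3), Junb at 1021 ± 376, Jund at 857 ± 294, Jun at 583 ± 357, Fosb at 336 ± 238, Egr1 at 267 ± 94.4, Atf3 at 146 ± 111, and then Egr3, Egr2 and Fosl2 at 31.5 ± 6.75, 24.8 ± 3.85 and 20.0 ± 3.26. The ranges of neighbours from Fos down to Atf3 overlapped. Because the genes were measured in the same libraries, this overlap does not test their order. In intact blood Junb led at 643 ± 374 CPM per kb, followed by Jund at 404 ± 185, and the EGR genes were the lowest, with Egr1 at 20.0 ± 7.30, Egr2 at 6.31 ± 3.47 and Egr3 at 3.25 ± 1.86. In resected blood Egr1 stood at 123 ± 34.7 CPM per kb, between Atf3 at 139 ± 54.2 and Jun at 115 ± 22.0, from neither of which it was separated by its spread. In resected spleen the leading genes were Jund at 1490 ± 315, Junb at 1320 ± 223 and Fos at 1278 ± 530 CPM per kb.

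In blood monocytes after resection all 3 EGR genes were called higher, and none of the 7 AP-1 genes in the group was called in either direction. Egr1 rose 6.15-fold, Egr2 5.65-fold and Egr3 5.47-fold. Mean levels went from 89.6 ± 32.7 to 551 ± 156 CPM for Egr1, from 20.1 ± 11.05 to 113 ± 45.2 CPM for Egr2 and from 13.3 ± 7.64 to 72.8 ± 20.5 CPM for Egr3 (SD, n = 3 libraries). By the quasi-likelihood test of edgeR their changes were 2.62 (SE 0.41), 2.50 (SE 0.49) and 2.45 (SE 0.52) on the log2 scale, with Benjamini-Hochberg adjusted p of 0.00293, 0.00720 and 0.0104 over all features tested. A gene was called at an adjusted p under 0.05 and a change above 1 on the log2 scale, so 3 of the 10 were called higher and 0 lower. Among the 20135 features tested 7.80% were called higher and 6.11% lower. The libraries of the 2 states did not overlap for those 3 genes, against 19.4% of features that stood higher without overlap. The 7 AP-1 genes had log2 fold changes of -0.47 for Fos, -0.56 for Fosb, 0.55 for Fosl2, -0.10 for Jun, 0.63 for Junb, -0.15 for Jund and -0.22 for Atf3, with SEs of 0.37 to 0.66 and adjusted p of 0.365 or more. Without intact blood library 3, the log2 fold changes of Egr1, Egr2 and Egr3 were 2.35, 2.11 and 2.05 with adjusted p of 0.00605, 0.00904 and 0.0136. All 3 genes were called with any one of the 12 libraries left out.

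In splenic monocytes, where both states had been digested, 0 of the 10 genes were called after resection, against 0.780% of features called higher and 0.596% called lower. In edgeR 1 of the 10, Fosb, had an unadjusted p under 0.05. The count of calls was also 0 in DESeq2, which over all features called 956 higher and 608 lower, against 157 and 120 in edgeR, so the background share depended on the tool. Fosb had the largest estimate, a log2 fold change of 1.42 (SE 0.57, unadjusted p = 0.0307 and adjusted p = 0.189 in edgeR). Fosl2, Jun and Jund followed with estimates of 0.86 (SE 0.42), 0.81 (SE 0.43) and 0.80 (SE 0.37) and edgeR adjusted p of 0.280, 0.315 and 0.253. The estimates for Egr1, Egr2 and Egr3 were 0.05 (SE 0.38), -0.46 (SE 0.46) and 0.03 (SE 0.49). Only Jund had libraries that did not overlap between the states, against 17.4% of features that stood higher without overlap. The median over the 10 genes was 0.46 on the log2 scale and over all features 0.05. Misses of the threshold at 3 libraries a group do not show that these genes were unaffected.

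The difference of the resection effect between blood and spleen was tested as an interaction. In edgeR 0 of the 10 genes were called, against 0.219% of features called higher and 0.0646% lower, and 4 of the 10 had an unadjusted p under 0.05. These were the EGR genes and Fosb. The log2 difference, blood effect minus spleen effect, was 2.57 for Egr1 (SE 0.55, adjusted p = 0.0861), 2.96 for Egr2 (SE 0.67, adjusted p = 0.0988), 2.42 for Egr3 (SE 0.71, adjusted p = 0.166) and -1.99 for Fosb (SE 0.79, adjusted p = 0.247). DESeq2 called the difference for the 3 EGR genes. The difference between the tissues was thus called by 1 of the 2 tools.

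**Figure D2:**
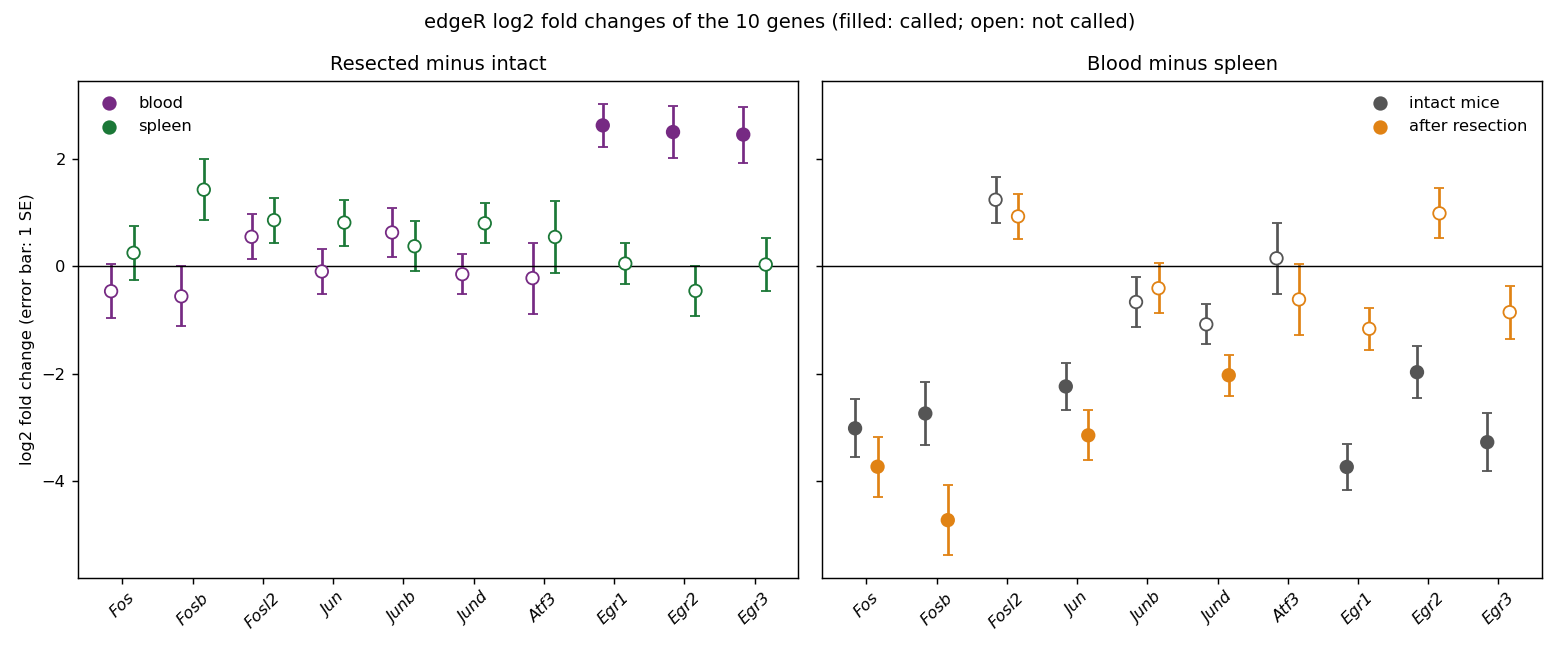
edgeR log2 fold changes (vertical axis, error bars 1 SE) of the 10 genes (horizontal axis) for resected minus intact mice in blood and spleen (left) and for blood minus spleen in intact mice and after resection (right); filled points were called. The filled points on the left are Egr1, Egr2 and Egr3 in blood, at 2.62, 2.50 and 2.45, and on the right 6 points are filled for intact mice and 4 after resection, all below 0.

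In intact mice 6 of the 10 genes were lower in blood than in splenic monocytes and 0 were higher, against 3.49% of features called lower and 3.86% called higher. Egr1 was 13.3-fold lower (log2 fold change -3.74, SE 0.43, adjusted p = 0.00178 in edgeR), Egr3 9.69-fold (-3.28, SE 0.54, adjusted p = 0.00724), Fos 8.11-fold (-3.02, SE 0.54, adjusted p = 0.0103) and Fosb 6.69-fold (-2.74, SE 0.59, adjusted p = 0.0217). Jun was 4.72-fold lower (-2.24, SE 0.45, adjusted p = 0.0156 in edgeR) and Egr2 3.93-fold (-1.97, SE 0.48, adjusted p = 0.0329). Junb and Atf3 stood at -0.67 (SE 0.46) and 0.15 (SE 0.66), and Jund at -1.08 with an edgeR adjusted p of 0.0989. Fosl2 had an estimate in the other direction, 1.24 (SE 0.42, adjusted p = 0.0997 in edgeR), and was called higher in blood by DESeq2 and without resected spleen library 3. The calls for Fos, Egr1 and Egr3 held with any one library left out. Those for Fosb (lost without intact spleen library 1 or 3 or intact blood library 1), Jun (lost without intact blood library 1) and Egr2 (kept in 3 of 12 such fits) did not, and these 3 were also lost when only the 2 compared groups were fitted. Without intact spleen library 3 the log2 fold changes of Fosb and Jun were -1.89 and -1.52. The Egr2 call was lost as well with no filter on low counts and with the entries as deposited.

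After resection 4 of the 10 genes were lower in blood and 0 higher, against 6.87% of features called lower and 6.28% called higher. Fosb was 26.5-fold lower (log2 fold change -4.73, SE 0.65, adjusted p = 0.00178 in edgeR), Fos 13.3-fold (-3.73, SE 0.56, adjusted p = 0.00246), Jun 8.88-fold (-3.15, SE 0.46, adjusted p = 0.00235) and Jund 4.09-fold (-2.03, SE 0.38, adjusted p = 0.00662). These 4 calls held with any one library left out. No EGR gene was called here. Egr1 stood at -1.17 (SE 0.39, adjusted p = 0.0609 in edgeR), Egr2 at 0.98 (SE 0.47) and Egr3 at -0.86 (SE 0.50). DESeq2 called Egr1 lower, and edgeR fitted without intact blood library 3, a part of the common variance estimate, called Egr1 lower and Egr2 higher. Fosl2, Junb and Atf3 had estimates of 0.93, -0.41 and -0.62, and without resected spleen library 3 Fosl2 stood at 1.55 and was called higher in blood. This comparison shares its resected blood libraries with the test of resection in blood, as the comparison in intact mice shares the intact ones, so the estimates are not independent of each other.

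Ratios between genes of 1 library do not depend on the scaling of that library. For Egr1 over Fos the ratio of counts was 0.619, 0.472 and 0.510 in intact spleen, 0.481, 0.437 and 0.481 in resected spleen and 0.312, 0.282 and 0.491 in intact blood. In resected blood it was 2.99, 2.49 and 2.81. Resected blood was thus the one group in which Egr1 counts exceeded Fos counts, in 3 of 3 libraries. For Fosb over Fos the ratio was 0.480, 0.375 and 0.704 in intact spleen and 2.07, 0.846 and 1.16 in resected spleen, without overlap, and 0.604 to 0.727 over the 6 blood libraries. For Junb over Jun it was 0.650 to 1.23 over the 6 splenic libraries, 3.64, 3.01 and 1.61 in intact blood and 4.97, 4.80 and 4.90 in resected blood. An exact two-sided permutation test of 3 against 3 libraries cannot go below 0.1, so these ratios are given without a test.

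**Figure D3:**
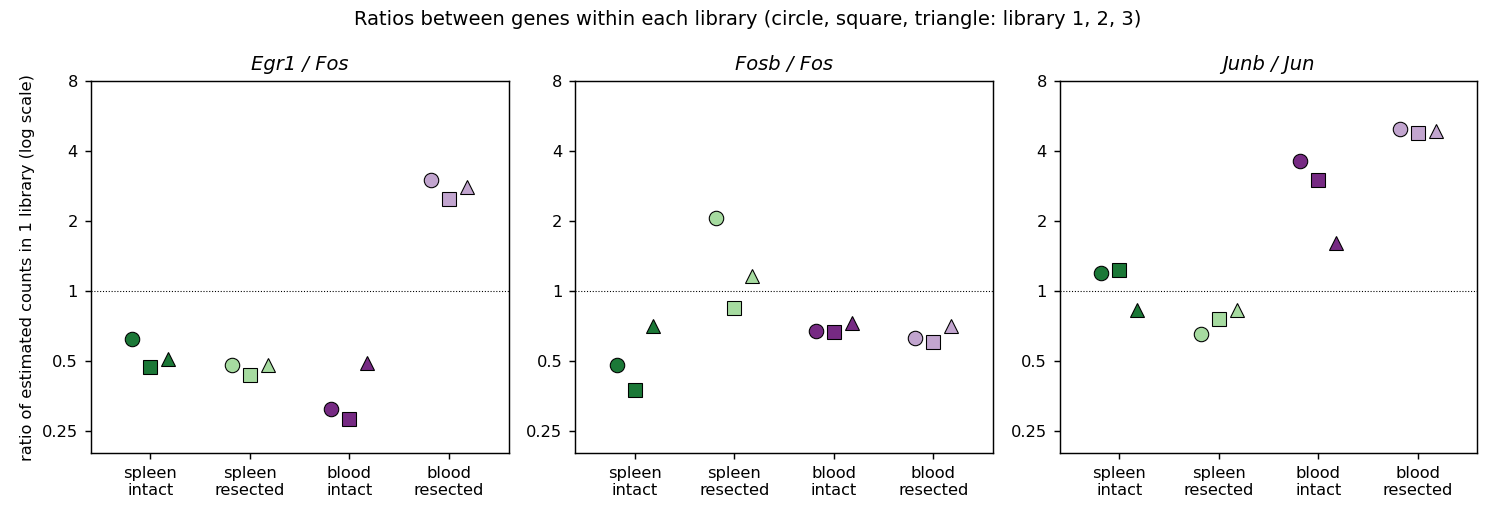
Ratio of counts between pairs of genes within each library (vertical log axis) by group (horizontal axis), with libraries 1, 2 and 3 as circles, squares and triangles and a dotted line at 1. Egr1 over Fos was 2.49 to 2.99 in resected blood and at most 0.619 elsewhere, and Junb over Jun was higher in blood than in spleen in every library.

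Of 15 other AP-1 and related bZIP genes, 6 were called higher and 0 lower in blood after resection, with a median log2 fold change of 0.97 against -0.10 over all features. They included Fosl1, which encodes FRA-1 (4.75, SE 0.98, from 0.175 to 0.468 CPM to 4.24 to 15.8 CPM), Jdp2, a JUN partner that represses (2.90, SE 0.57), and Mafg, a small MAF protein (1.63, SE 0.20). In spleen 2 were called higher, Fosl1 (5.03, SE 0.99, from 0.0417 to 0.447 CPM to 2.34 to 13.6 CPM) and Atf4, the factor of the integrated stress response (1.02, SE 0.22). Fosl1 was thus the FOS gene called after resection in both tissues, from outside the 10. Neither the Fosl1 call nor the Atf4 call in spleen was kept in every fit with 1 library left out. In intact spleen library 2, at 0.0417 CPM, Fosl1 also stood near the counting limit of 3 counts. Between tissues 2 were lower in intact blood, Nfe2l2 (-1.13) and Maf (-1.14), and after resection Batf was higher (1.23) and Mafk lower (-1.48).

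Of 27 other immediate-early response genes, 8 were called higher and 1 lower in blood after resection. Ier3 (4.39, SE 0.46) and the growth arrest genes Gadd45b (3.51, SE 0.48) and Gadd45a (3.15, SE 0.36) rose, and Arc fell by 2.75 on the log2 scale, or by 1.57 without intact blood library 3, where it stood at 12.5 CPM against 2.53 and 2.67 CPM. In spleen 6 rose and 0 fell, among them Klf10, a TGF-beta responsive factor (2.05, SE 0.36), and Gadd45a (1.79, SE 0.34). Ccn1, a matricellular protein gene, was also called there but stood near the counting limit of 3 counts, at 0.0213 to 0.0842 CPM in intact and 0.306 to 0.664 CPM in resected spleen. The list medians were 0.48 in blood and 0.86 in spleen, against -0.10 and 0.05 over all features. In intact mice 2 were higher in blood, Nr4a3 (1.93) and Ccn1 (0.284 to 0.360 CPM in blood), and 4 were lower, among them Zfp36 (-2.07) and Zfp36l1 (-1.86), whose proteins promote decay of AU-rich messenger RNAs, and Rhob (-1.46). After resection 2 were higher in blood, Phlda1 (1.77) and Ier3 (1.62), and 7 lower, among them Rhob (-2.50), Myc (-2.20) and Btg2 (-1.20).

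Of 27 genes of the MAP kinase and serum response factor route, which induces these factors, 3 rose in blood after resection (Map3k8 by 2.45, Mapkapk2 by 1.67 and Map2k3 by 1.28 on the log2 scale) and 4 fell (among them Creb1, -1.26, Map3k1, -1.43, and Rps6ka5, -1.30), with a list median of 0.00. None was called in spleen or between tissues in intact mice in edgeR, where 8 and 5 of the 27 had an unadjusted p under 0.05. After resection Mapkapk2 was higher in blood (1.24) and Rps6ka5 lower (-1.26). Of 17 feedback inhibitors, 5 rose in blood after resection, among them Nfkbia, the inhibitor of NF-kappa-B (2.74, SE 0.33), Spred1 (2.51, SE 0.33) and Spred2 (1.05, SE 0.16), and Spry2 (-1.71) and Dusp10 (-2.51, or -1.91 without intact blood library 3) fell. In spleen Nfkbia (2.00) and Dusp4 (2.10) rose, and Spry2 (-1.25) and Nab2, a corepressor of EGR proteins (-1.02), fell. In intact mice 3 were higher in blood (Dusp10, 3.73, Tnfaip3, 1.67, and Dusp5, 1.06) and 5 lower, among them Spry4 (-2.87), Dusp1 (-2.03) and Nab2 (-1.02). After resection 5 were higher (among them Socs3, 2.79, Spred1, 1.98, and Spred2, 1.96) and 4 lower (among them Spry4, -2.38, Dusp6, -1.67, and Dusp1, -1.58). Spred2 was the only one of the 17 called in the interaction (1.57, SE 0.22).

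Of 19 genes known as AP-1 or EGR targets, 16 rose and 0 fell in blood after resection, with a list median of 4.44 on the log2 scale. Among them Spp1, which encodes osteopontin, rose by 8.83 (SE 0.80) and Hbegf, an EGF receptor ligand, by 4.44 (SE 0.45). In spleen 4 rose and 0 fell, with a median of 2.04, among them Cxcl2 (3.89, SE 0.53), Tnf (3.25, SE 0.64) and Hbegf (2.46, SE 0.41). The interaction was called for 3 of the 19, among them Spp1 (6.80, SE 0.90) and Ptgs2 (6.07, SE 1.02). In intact mice Il6 was higher in blood (3.00) and Ptgs2 (-3.39) and Il1b (-2.98) lower, and after resection 12 of the 19 were higher in blood and 0 lower, among them Il6 (8.36) and Spp1 (6.62). Il6 stood at only 0.188 to 0.213 CPM in intact and 0.0873 to 0.320 CPM in resected spleen. The size of its differences therefore rests on few splenic counts. All these genes answer to other factors as well, and what drove them was not tested. Over all the lists given here, marker lists included, 52 of 86 genes called after resection in blood were called with any one library left out. The numbers were 0 of 19 in spleen, 26 of 56 between tissues in intact mice, 36 of 70 after resection and 0 of 4 in the interaction.

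Heat shock genes are also known to be induced by enzymatic dissociation of tissue. Of 13 such genes, 0 were called between blood and spleen in intact mice, where 0 also had an unadjusted p under 0.05 in edgeR, and the list median was 0.25 on the log2 scale, against -2.11 for the 10 AP-1 and EGR genes. Their summed level was 4770 to 7520 CPM in intact spleen and 5650 to 9150 CPM in intact blood. After resection 0 of the 13 were called between tissues and 3 had an unadjusted p under 0.05, with summed levels of 5560 to 6390 CPM in spleen and 4540 to 5830 CPM in blood. Resection in spleen gave 0 calls, with 4 at an unadjusted p under 0.05. In blood 3 fell after resection, Hsph1 (-3.25, SE 0.55), Hsp90aa1 (-1.32, SE 0.39) and Dnaja1 (-1.28, SE 0.34). Without intact blood library 3 the calls for Hsp90aa1 (-0.82) and Dnaja1 (-1.11) were lost. Whether digestion had a part in the splenic levels of Fos, Fosb and Jun was not tested, as no undigested spleen and no digested blood was sequenced.

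Markers of other cells moved with the same comparisons, and their part in the values of the AP-1 and EGR genes was not tested. In blood after resection, where the EGR genes rose, 12 of 12 neutrophil markers rose, from a summed level of 144 to 526 CPM to 3860 to 19900 CPM, as did 7 of 8 peritoneal macrophage markers (3580 to 7210 against 19100 to 25000 CPM) and 7 of 8 red pulp macrophage markers (186 to 704 against 1870 to 2370 CPM). Most of the peritoneal macrophage sum came from Fn1, the marker of that list that was not called. Fn1 stood at 3051 to 6230 CPM in intact blood and at 13800 to 19750 CPM in resected blood. The red pulp markers that rose differed widely in level. Hmox1 reached 565 to 801 CPM in resected blood, whereas Vcam1 reached only 1.37 to 4.79 CPM there, against 377 to 1572 CPM in splenic libraries. Of 10 monocyte markers 5 rose and Cx3cr1 fell, while summed levels went from 3480 to 8970 CPM to 13400 to 15700 CPM. Of 7 tested T cell markers 5 fell, and 1 of 7 platelet markers, Pf4, rose. B cell, NK cell, dendritic cell and erythroid lists had 0 calls. In spleen after resection 2 of 12 neutrophil markers (1330 to 2430 against 5600 to 15200 CPM) and 1 of 8 red pulp markers, Hmox1, rose, and the other lists had 0 calls. In each tissue the highest neutrophil sum after resection came from library 3, against group medians of 4830 CPM in blood and 5840 CPM in spleen. Markers that were not called still stood apart in spleen after resection. The libraries did not overlap for 7 of 7 erythroid markers, which were higher (711 to 3360 against 7500 to 32700 CPM, median log2 fold change 3.25). Nor did they for 7 of 7 T cell (median -1.62) and 5 of 5 NK cell markers (median -3.30), which were lower. Of 8 B cell markers 5 were also lower without overlap (4970 to 5610 against 1380 to 4290 CPM), as were 3 of 7 dendritic cell markers. With called genes included, 9 of 12 neutrophil and 5 of 8 red pulp markers were higher without overlap. Of 10 monocyte markers 2 were higher and 3 lower in this way. Over all features 17.4% stood higher and 17.7% lower without overlap.

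In intact mice, where 6 of the AP-1 and EGR genes were lower in blood, 4 of 8 red pulp macrophage markers were also lower (1350 to 2050 CPM in spleen against 186 to 704 in blood), as were 6 of 12 neutrophil, 3 of 7 dendritic cell and 1 of 8 B cell markers. B cell markers summed to 4970 to 5610 CPM in spleen and 597 to 2700 CPM in blood. Markers of peritoneal macrophages (6 of 8), platelets (6 of 7), erythroid cells (5 of 7) and T cells (5 of 7) and 1 of 10 monocyte markers were higher in blood. After resection 3 of 8 red pulp, 2 of 12 neutrophil and 2 of 7 dendritic cell markers were lower in blood, and 7 of 8 peritoneal macrophage, 7 of 7 platelet, 5 of 7 erythroid, 5 of 7 T cell, 4 of 10 monocyte and 1 of 5 NK cell markers were higher. No list had a defining marker at the counting limit in all libraries except NK cells, with 1 of 6.

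**Figure D4:**
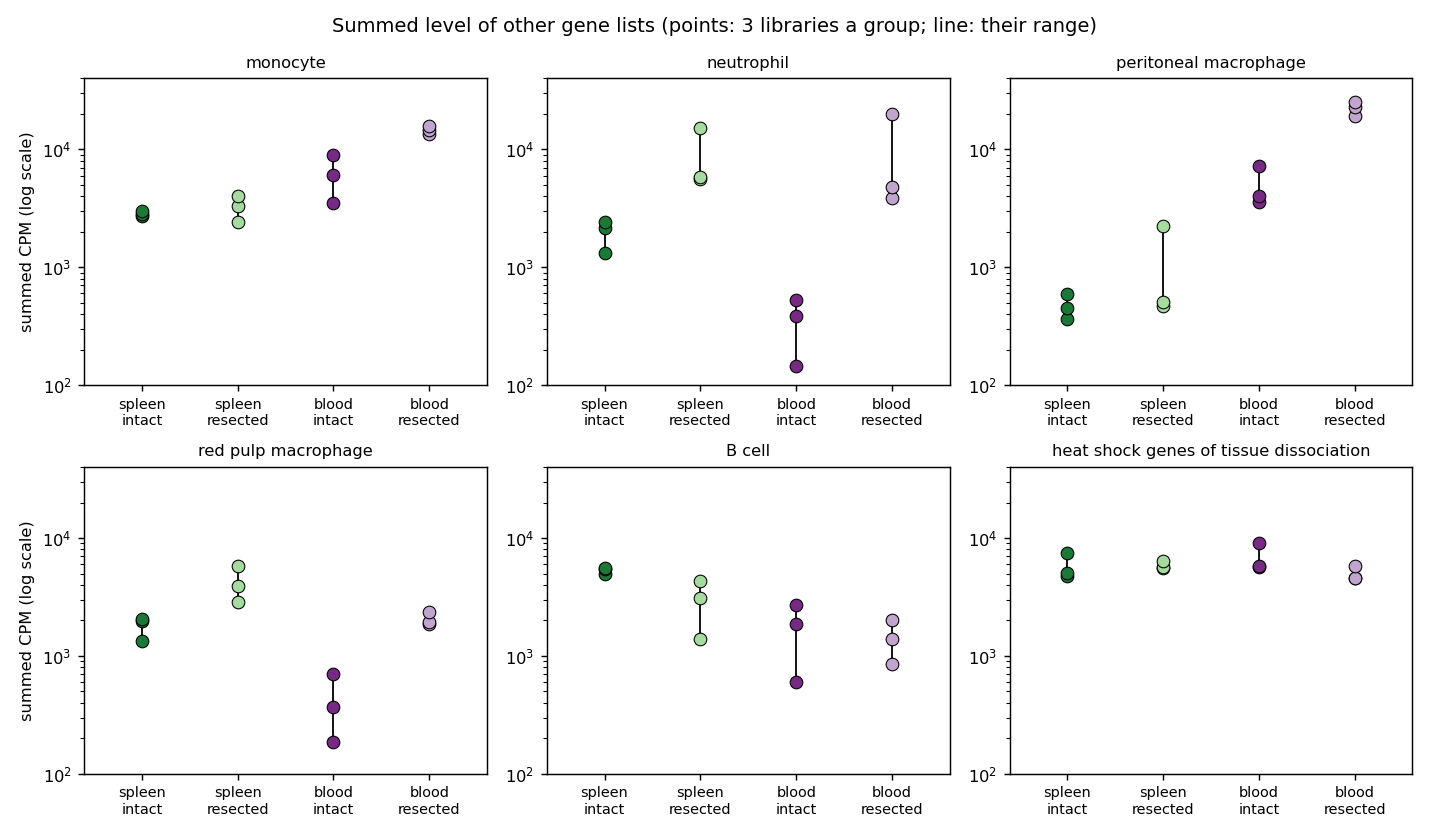
Summed CPM (vertical log axis) of 5 cell type marker lists and of the heat shock genes by group (horizontal axis); points are the 3 libraries of a group and lines their range. Neutrophil markers ran from 144 to 526 CPM in intact blood and from 3860 to 19900 CPM in resected blood, while heat shock genes lay between 4540 and 9150 CPM in every library.

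The genes whose levels ran most like those of Fos over the 12 libraries, of 12475 candidates, were Gm38543, Chchd10, St6galnac2, Nedd4 and Rhob, with Pearson correlations of log2 CPM of 0.98, 0.98, 0.98, 0.98 and 0.97. Those most like Egr1 were BC005624, Zfp532, Fgf1, Mthfsl and Ccser1, at 0.98, 0.96, 0.96, 0.95 and 0.95. The libraries share groups and tissue, so each coefficient describes the step between groups as much as any spread within them. Chchd10, for example, stood at 34.2 to 45.3 CPM in the 6 splenic and at 3.71 to 10.8 CPM in the 6 blood libraries, the same split as Fos. BC005624 stood at 37.5 to 39.5 CPM in intact blood and at 46.03 to 52.18 CPM in all other libraries, a far flatter profile than that of Egr1. Both genes were lowest in intact blood. The resected blood libraries of BC005624, at 46.03 to 48.03 CPM, overlapped its splenic ones, at 47.32 to 52.18 CPM, whereas those of Egr1 lay below.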

How the data were processed

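RNA-seq of CD115-positive monocytes was taken from 12 libraries in 4 groups of 3, grouped by the sample labels. For each library the authors deposited estimated counts, not scaled to depth or length. The submitters' processing notes name STAR and GRCm39, and the counting tool and annotation are not given in the sources used here. The library kit was strand-specific. Each table had 67088 entries. Unassigned transcripts (1.75% to 4.33% of a library) were left out. Entries were summed per symbol into 52553 features, with accessions matched through the RefSeq table of GRCm38.p6, and rounded to whole numbers. In R 4.3.3, edgeR 4.0.16 (filterByExpr, 20135 features, TMM, robust glmQLFit and glmQLFTest, no covariates, common dispersion 0.312) was fitted over all 12 libraries, with Benjamini-Hochberg adjustment over all features. SE is the log2 fold change divided by the square root of F. The chi-square per degree of freedom between libraries of a group was 20.2 to 599, far above counting noise. That does not show that the libraries came from different mice, and each was counted as a replicate by its label. Alternatives were DESeq2 1.42.0, RLE factors, other filters, entries as deposited, no fold limit, haemoglobin genes left out, a replicate block, the 2 compared groups alone and each library left out. The procedure was tested on simulated data. The reads carried no molecular identifiers. The genes named were the 10 members, Csf1r, in each list at most 3 called genes per direction with the smallest p-value, and the 5 genes most like Fos and Egr1 (log2 CPM, prior count 2, mean of at least 50 counts). A gene that meets this rule is not reported here. The members and lists were chosen with earlier results of these data known.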

Additional observations from a re-analysis of the deposited data

How the results depend on the processing

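Between tissues in intact mice the number of genes called was 6, and 3 when only the 2 compared groups were fitted (Fos, Egr1 and Egr3). With 1 library left out it ranged from 3 to 7. For the difference of the resection effect between tissues the number was 0 in edgeR and 3 in DESeq2. The cause was not tested in either case. The other counts for the 10 genes stayed within 1.5 times under every alternative run, although the Egr2 call in intact mice was lost (5 called) with no filter on low counts and with entries as deposited. Over all features DESeq2 called 657 higher and 506 lower in the interaction, against 44 and 13 in edgeR, and 956 and 608 after resection in spleen, against 157 and 120. Between tissues it called 1384 higher and 1184 lower in intact mice, against 778 and 702, and 1931 and 1696 after resection, against 1264 and 1384. With the replicate number as a block the counts were 3, 0, 6, 4 and 0, as without it. The labels do not say whether same-numbered spleen and blood libraries came from the same mice. Of 18 correlations of same-numbered deviations, 2 were over 0.1 (range -0.046 to 0.189). Both of these were between resected spleen and resected blood (0.131 and 0.189). Most of the 18 set intact against resected mice, which were different animals, so pairing of the tissues was not settled by them. Under the replicate block, estimates that were not called changed sign for Egr1 (-0.0601) and Egr3 (-0.0635) in spleen and Atf3 (-0.0914) between tissues in intact mice. Leaving out 1 library changed the sign of further uncalled estimates, which ranged from -0.27 to 0.36 for Egr1, -0.40 to 0.34 for Egr3 and -0.14 to 0.61 for Fos after resection in spleen. The ranges in blood were -0.36 to 0.18 for Jun, -0.48 to 0.17 for Jund and -0.68 to 0.30 for Atf3. They were -0.28 to 1.07 for Atf3 between tissues in intact mice, and -0.17 to 0.55 for Junb and -0.60 to 0.21 for Fosl2 in the interaction. No called gene changed sign. With 3 pools a group, changes of the size of the uncalled splenic estimates were not resolved.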

Other observations

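The summed level of the 10 genes was 7543, 8049 and 15970 CPM in intact spleen, 18620, 18490 and 11960 CPM in resected spleen, 4169, 4773 and 1496 CPM in intact blood and 4309, 5397 and 4058 CPM in resected blood. Intact spleen library 3 was the highest of its group for 9 of the 10, and resected spleen library 3 and intact blood library 3 were the lowest of theirs for 9 and for 10.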
